A study of Mus musculus with 4 samples.

Results

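The genes described are 10 of the transforming growth factor beta (TGF-beta) system: the ligand genes Tgfb1, Tgfb2 and Tgfb3, the receptor genes Tgfbr1, Tgfbr2 and Tgfbr3, the latent binding protein genes Ltbp1 and Ltbp2, the TGF-beta-induced matrix gene Tgfbi and the Smad co-repressor gene Skil. They were chosen by name, with earlier results of these data known. Each was read from microarray probe sets that the platform annotation lists with that gene symbol alone. In all, 25 probe sets met this rule. Each gene was represented by its brightest set, judged by the mean of all arrays, and the other sets served as a check. All 10 genes lay above the intensity filter and were among the 10916 genes tested.

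TGF-beta ligands are secreted in a latent form, held by their own propeptide and tethered to the matrix by latent binding proteins, and integrins or proteases release them. A freed ligand binds the type II receptor kinase, which recruits and phosphorylates the type I receptor kinase. The type I receptor then phosphorylates Smad transcription factors, which enter the nucleus and turn on genes for matrix proteins and for feedback inhibitors. In the hair follicle TGF-beta signalling is known for its part in regression, and TGF-beta 2 from the dermal papilla is known to act on stem cells of the hair germ as the resting phase, telogen, ends.

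RNA of whole dorsal skin from male C57B6 mice was hybridised to 4 Affymetrix arrays. There were 2 for postnatal day 54 (P54), in the middle of adult telogen, and 2 for day 59 (P59), late in it. No treatment or transgene is given for either group, so age is the labelled difference between them. The labels call the samples biological replicates without naming animals or saying whether skins were pooled, so p-values measure the spread between these samples, which may be technical. Whole skin mixes epidermis, follicles, dermis, fat, muscle, vessels and immune cells, and fewer cells of a type cannot be told apart from less RNA per cell.

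Array P59 replicate 2 stood apart from the other arrays. On the array maker's control sets, the 3' set of the housekeeping gene Gapdh was brighter than its 5' set by 0.20 to 0.34 (log2 intensity) on both P54 arrays and by 0.23 on P59 replicate 1, but by 4.57 on P59 replicate 2. For the actin gene Actb the 3' set was brighter by 0.18 to 0.52 on those 3 arrays and by 1.64 on P59 replicate 2. A wide gap of this kind is a usual sign of degraded or incompletely copied RNA. For 4200 genes with several bright sets, the shift of each set on this array was taken relative to the mean of the others. The sets of 1 gene moved apart by over 1 (log2) for 19.5% of these genes. On the other arrays the share was 1.43% to 10.4%, highest on P54 replicate 2. That P54 array was also the lowest of all arrays for 42.0% of genes tested. The differences of the genes named below are therefore given with and without P59 replicate 2, and the part of these signs in the results was not tested.

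No gene of the 10 differed between P59 and P54 past the adjusted threshold. In limma's fit over all genes tested, with Benjamini-Hochberg adjustment, 0 of 10 had an adjusted p under 0.05, where 0.0183% of all genes did. At an unadjusted p under 0.05 there was 1 of 10, the receptor gene Tgfbr2, where 6.49% of all genes had such a p and 3.47% had it with a higher P59 mean. The P59 mean was higher for 8 genes, as for 58.4% of all genes, and lower for Tgfb1 and Tgfb3. Leaving out P59 replicate 2 left 0 of 10 at an unadjusted p under 0.05 in limma, where 6.35% of all genes then had such a p. Leaving out P59 replicate 1 gave 7 of 10, where 18.6% of all genes did. All 10 genes lay further from the P54 mean on P59 replicate 2 than on P59 replicate 1. The share of all genes that did so was not counted. P59 replicate 2 was the highest of the arrays for the same 8 genes and the lowest for the other 2. Over all genes it was the highest for 46.4% and the lowest for 23.3%.

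**Figure D1:**
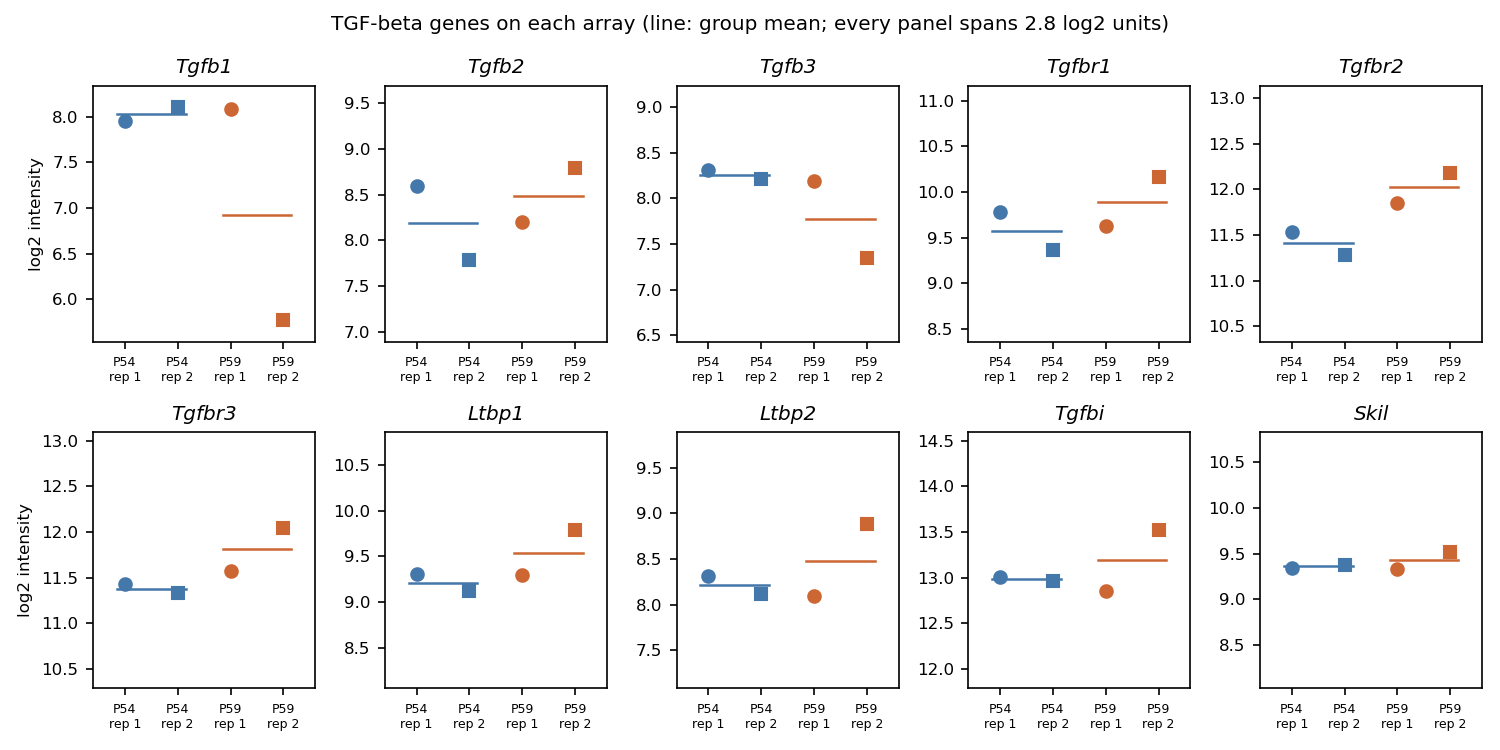
Log2 intensity (vertical axis) of each of the 10 TGF-beta genes on each array (horizontal axis), blue for P54 and orange for P59, with a line at each group mean; every panel spans the same number of log2 units. P59 replicate 2 is the lowest point for Tgfb1 (5.77) and Tgfb3 (7.35) and the highest for the other 8 genes.

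Tgfb1, which encodes the ligand best known for immune restraint and for matrix production, showed the largest difference of the 10. Its log2 intensity was 7.95 and 8.10 on P54 replicates 1 and 2, 8.08 on P59 replicate 1 and 5.77 on P59 replicate 2. In linear intensity these values are 248, 274, 271 and 54.4. The first 3 arrays lay close together, and P59 replicate 2 lay far below them. The group means were 8.03 ± 0.10 at P54 and 6.92 ± 1.64 at P59 (SD, n = 2 per group), a 2.15-fold lower mean (log2 difference -1.10, SE 0.56, 95% interval -2.35 to 0.14, limma adjusted p = 0.835). The groups overlapped. Without P59 replicate 2 the difference was 0.06. Without P59 replicate 1 it was -2.26, with a limma adjusted p of 0.00564, which rests on that 1 array. Relative to the mean of the other arrays, P59 replicate 2 was lower by 1 or more (log2) for 2.91% of genes tested, and as low as Tgfb1 or lower for 0.165%.

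Tgfb3, the third ligand gene, lay in the same direction by less. It was at 8.31 and 8.21 on the P54 arrays, 8.19 on P59 replicate 1 and 7.35 on P59 replicate 2. Both P59 values were below both P54 values, P59 replicate 1 by a small margin. The mean was 8.26 ± 0.07 at P54 and 7.77 ± 0.59 at P59 (SD, n = 2 per group), a difference of -0.49 (SE 0.29, 95% interval -1.14 to 0.15) that did not pass limma's threshold (adjusted p = 0.871). Without P59 replicate 2 it was -0.07.

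Tgfb2, the ligand made by the dermal papilla, had replicates that lay further apart at P54 (0.79) than at P59 (0.59). Its brightest set was at 8.59 and 7.79 on the P54 arrays and at 8.20 and 8.79 on the P59 arrays. Each group held a high and a low array, and the groups overlapped. The difference was 0.30 (SE 0.31, 95% interval -0.39 to 0.99, limma adjusted p = 0.951), 0.01 without P59 replicate 2 and -0.09 without P54 replicate 2.

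In their brightest sets the receptor genes were all higher on average at P59, each by less than 2-fold. Tgfbr2 encodes the type II receptor kinase that binds ligand first. It was at 11.53 and 11.28 on the P54 arrays, 11.85 on P59 replicate 1 and 12.18 on P59 replicate 2, so both P59 arrays lay above both P54 arrays. Its mean was 11.41 ± 0.18 at P54 and 12.02 ± 0.24 at P59, a 1.52-fold higher mean (log2 difference 0.61, SE 0.24, 95% interval 0.08 to 1.14). The unadjusted limma p was 0.0291 and the adjusted p 0.698. Without P59 replicate 2 the difference was 0.44, the largest of the 10 genes on the remaining arrays, with 11.8% of all genes at least as far from the P54 mean on P59 replicate 1.

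Tgfbr3 encodes betaglycan, a co-receptor without a kinase that presents ligand, TGF-beta 2 above all, to the type II receptor. It was at 11.43 and 11.33 on the P54 arrays and at 11.57 and 12.05 on the P59 arrays, again without overlap. The difference was 0.43 (SE 0.25, 95% interval -0.12 to 0.98, limma adjusted p = 0.870) and 0.19 without P59 replicate 2. Tgfbr1 encodes the type I receptor kinase that phosphorylates Smads. It was at 9.78 and 9.36 on the P54 arrays and at 9.63 and 10.16 on the P59 arrays, where P59 replicate 1 fell between the P54 values. Its difference was 0.33 (SE 0.27, 95% interval -0.27 to 0.92, limma adjusted p = 0.934) and 0.06 without P59 replicate 2. P54 replicate 2 was the lowest array for each receptor gene. Without that array the differences were 0.11 for Tgfbr1, 0.48 for Tgfbr2 and 0.38 for Tgfbr3.

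The latent binding protein genes were close to their P54 values on P59 replicate 1 and above them on P59 replicate 2. Ltbp1, whose protein joins the latent ligand covalently and anchors it in the matrix, was at 9.31 and 9.12 on the P54 arrays and at 9.29 and 9.79 on the P59 arrays. The difference was 0.32 (SE 0.25, 95% interval -0.23 to 0.88, limma adjusted p = 0.920), or 0.07 without P59 replicate 2. Ltbp2, a family member known as a microfibril protein that does not bind latent TGF-beta, was at 8.31 and 8.12 on the P54 arrays and at 8.09 and 8.88 on the P59 arrays. Here P59 replicate 1 was the lowest array and P59 replicate 2 the highest. The difference of 0.27 (SE 0.28, 95% interval -0.36 to 0.90, limma adjusted p = 0.952) turned to -0.12 without P59 replicate 2.

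Tgfbi and Skil, genes that TGF-beta signalling is known to induce, had P54 replicates that nearly coincided. Tgfbi, which encodes a secreted matrix protein that binds collagens and integrins, was at 13.01 and 12.97 on the P54 arrays and at 12.86 and 13.52 on the P59 arrays. The gap between its replicates was 0.04 at P54 and 0.66 at P59, with P59 arrays on either side of P54. Its difference was 0.20 (SE 0.27, 95% interval -0.39 to 0.79, limma adjusted p = 0.957), and -0.13 without P59 replicate 2. Skil encodes SnoN, which holds Smad complexes inactive and is itself a feedback target of the pathway. It was at 9.34, 9.38, 9.33 and 9.52 on P54 replicates 1 and 2 and P59 replicates 1 and 2, the narrowest range of the 10 genes. Its difference was 0.07 (SE 0.23, 95% interval -0.44 to 0.57, limma adjusted p = 0.990), and -0.03 without P59 replicate 2.

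**Figure D2:**
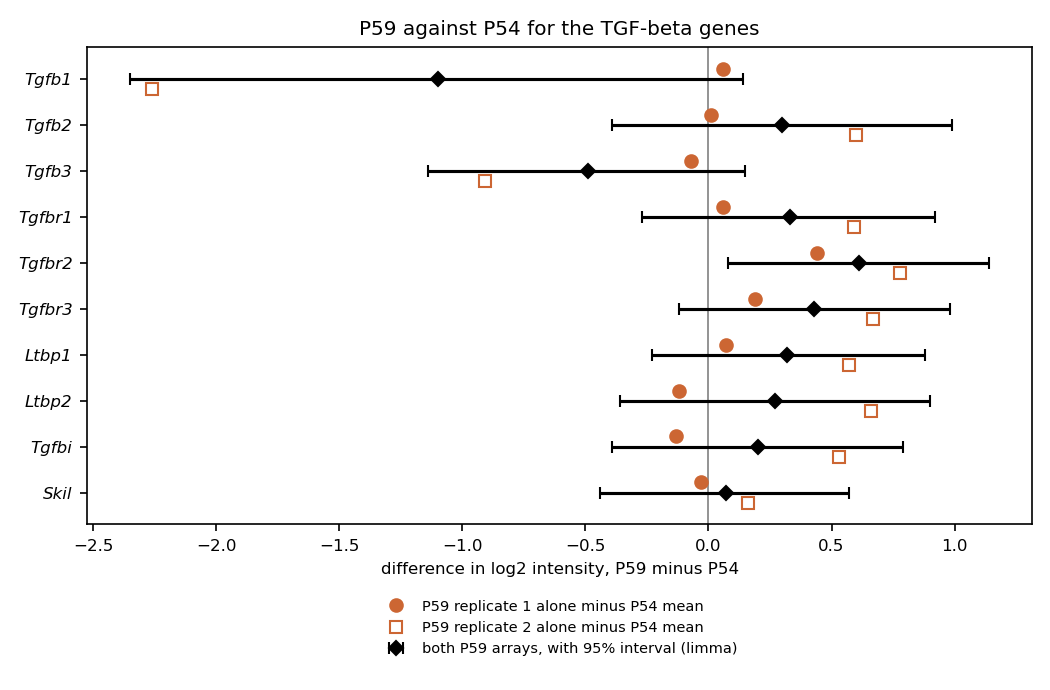
Difference in log2 intensity, P59 minus P54 (horizontal axis), for each gene: black diamonds give the difference of group means with limma's 95% interval, filled orange circles P59 replicate 1 alone and open orange squares P59 replicate 2 alone, each minus the P54 mean. The interval leaves out 0 for Tgfbr2 alone (0.08 to 1.14), and the circles stay within 0.44 of 0 while the squares run from -2.26 to 0.78.

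Counts over the 10 genes were set beside those of all genes. P59 and P54 arrays were fully separate for 3 of 10, against 33.7% of all genes tested: Tgfbr2 and Tgfbr3 were higher (18.9% of all genes) and Tgfb3 lower (14.8% of all genes). The median difference was 0.29 over the 10 genes and 0.05 over all genes tested, and without P59 replicate 2 it was 0.03 over the 10 genes and -0.0027 over all genes. P59 replicate 2 was the highest array for 8 of 10 genes and for 46.4% of all genes, and the lowest for 2 of 10 and for 23.3%. The gap between replicates was wider at P59 than at P54 for 9 of 10 genes, Tgfb2 being the exception, and for 62.7% of all genes.

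**Figure D3:**
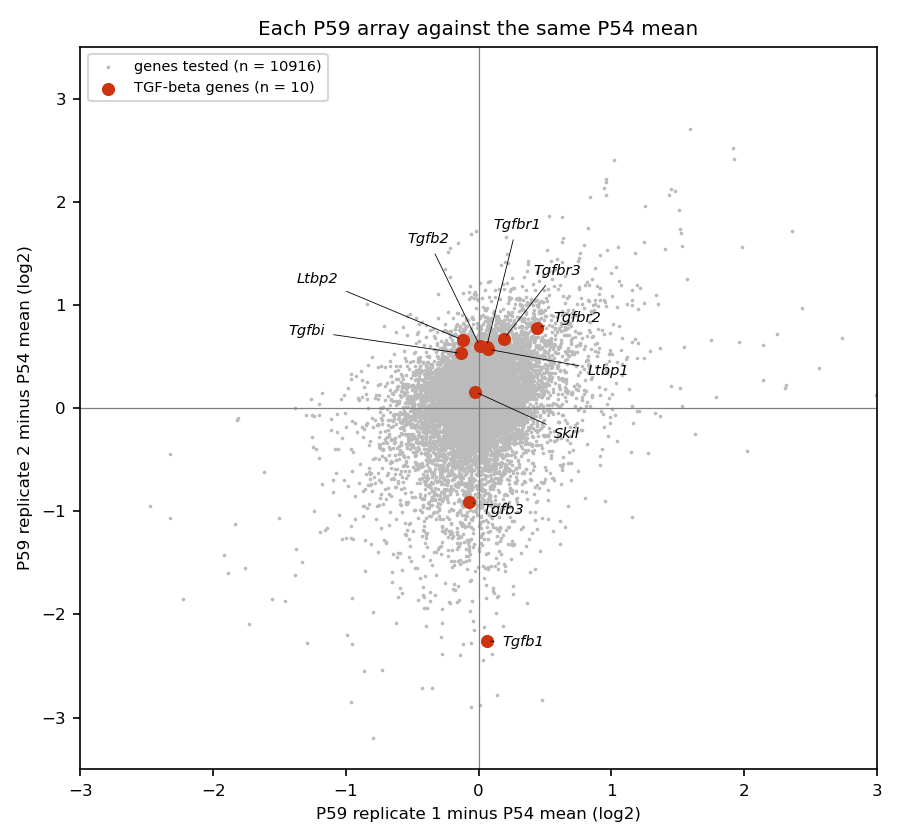
Difference of P59 replicate 1 (horizontal axis) and of P59 replicate 2 (vertical axis) from the mean of the P54 arrays, in log2 intensity, for all 10916 genes tested (grey; 12 lie outside the axes) and the 10 TGF-beta genes (red). Both axes share the P54 mean; the red points spread over -2.26 to 0.78 vertically and within 0.44 of 0 horizontally.

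The probe sets of a gene did not always move alike. A second bright set of Tgfbr2 was at 8.29 and 7.96 on the P54 arrays, 8.73 on P59 replicate 1 and 5.97 on P59 replicate 2. On P59 replicate 1 it was above both P54 arrays, as was the brightest set, by 0.60 and 0.44 relative to the P54 mean. On P59 replicate 2 the sets parted: relative to its P54 mean the brightest lay at 0.78 and the second at -2.15. The difference between groups was thus 0.61 in the brightest set and -0.78 in the second. With the mean of all its sets Tgfbr2 differed by -0.01.

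Tgfbr3 showed the same pattern. Its second bright set was at 8.35 and 7.55 on the P54 arrays, 8.54 on P59 replicate 1 and 6.41 on P59 replicate 2. Relative to its P54 mean it lay at 0.59 on P59 replicate 1 and at -1.54 on P59 replicate 2, where the brightest set lay at 0.67. The group difference was 0.43 in one set and -0.47 in the other, and -0.02 with the mean of both. For both receptors, then, the bright sets had the same sign on P59 replicate 1 and opposite signs on P59 replicate 2, the array with the wide Gapdh gap. The remaining, dim set of Tgfbr2 differed by 0.15, or -0.14 without P59 replicate 2. Where each set lies along its transcript is not recorded in the tables used.

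**Figure D4:**
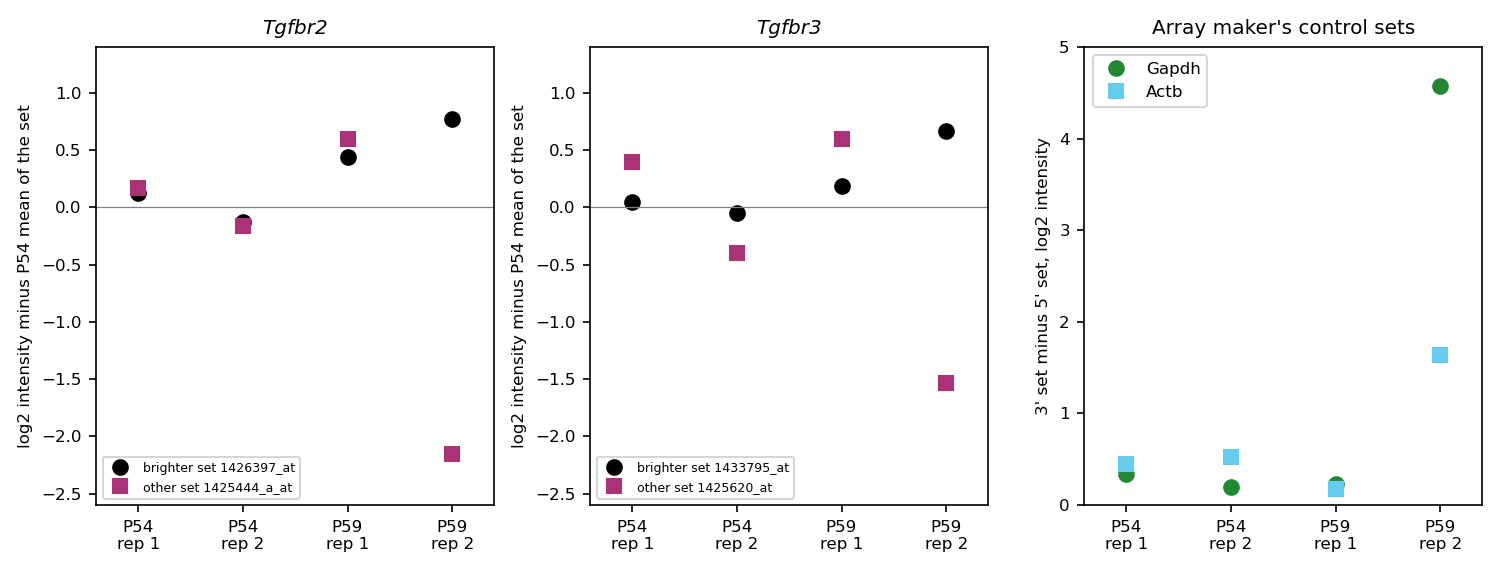
Log2 intensity on each array minus the P54 mean of the same probe set for the bright sets of Tgfbr2 (left) and Tgfbr3 (middle), and the 3' set minus the 5' set of the control genes Gapdh and Actb in log2 intensity (right). On P59 replicate 2 the receptor sets lie at 0.78 and -2.15 (Tgfbr2) and at 0.67 and -1.54 (Tgfbr3), and the control gaps reach 4.57 (Gapdh) and 1.64 (Actb).

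The bright sets of Tgfbi and Tgfb2 lay closer together. The 4 sets of Tgfbi differed by 0.20, 0.20, 0.12 and 0.03 (-0.13, -0.15, -0.12 and -0.23 without P59 replicate 2), and all were lowest on P59 replicate 1 and highest on P59 replicate 2. Some of these are of kinds that can match further transcripts. The other bright sets of Tgfb2 differed by -0.16 and -0.11 (-0.35 and -0.12 without P59 replicate 2), against 0.30 for the brightest. Of the 25 sets, 17 were above the filter intensity of 95.5. The 8 dim sets, of Tgfb1, Tgfb2, Tgfbr1, Tgfbr2, Ltbp1 and Skil, had differences of 0.05 to 0.49, or -0.14 to 0.79 without P59 replicate 2. The dim sets of Tgfbr1 parted by array. Relative to their P54 means they lay at 0.73 and 0.79 on P59 replicate 1, and at -0.47 and -0.70 on P59 replicate 2. On the P54 arrays these sets read 4.11 and 3.88, and 5.90 and 4.87, so the latter set also varied widely within P54. Tgfb3 and Ltbp2 had 1 set each and no such check, and the second set of Tgfb1 was dim (5.01, 5.18, 5.27 and 5.02 on P54 replicates 1 and 2 and P59 replicates 1 and 2), so the low value of Tgfb1 on P59 replicate 2 rests on 1 set. The sets of Tgfb1 differed by -1.10 and 0.05 (0.06 and 0.18 without P59 replicate 2).

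The wider pathway was read from 5 lists of 81 genes that hold none of the 10, of which 66 were tested. Of these, 0 passed limma's adjusted threshold, where 0.0183% of all genes did. At an unadjusted p under 0.05 there were 7 (10.6%), where 6.49% of all genes had such a p. Of the 7, 4 were higher and 3 lower at P59. Without P59 replicate 1, 4 passed (Lox, Junb, Ski and Ltbp4), with 3.68% of all genes tested passing in that fit. Without P59 replicate 2 there was 1 (Ccn2), with 0.266% of all genes passing. The median difference over the 66 genes was 0.02, against 0.05 over all genes tested. The share of 6.49% of all genes at an unadjusted p under 0.05 also stands beside the counts of each list below.

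Genes of latency and activation, which hold or free the ligand, gave 12 tested genes, 9 with a higher and 3 with a lower P59 mean and 0 at an unadjusted p under 0.05 in limma. Their median difference was 0.19, or 0.11 without P59 replicate 2. Itgb3, an integrin subunit able to bind latent TGF-beta, read 6.94 and 6.50 on the P54 arrays and 7.11 and 7.25 on the P59 arrays (0.46, limma adjusted p = 0.849; 0.39 without P59 replicate 2). Mmp2, a gelatinase, read 12.07 and 12.11 on the P54 arrays and 12.38 and 12.59 on the P59 arrays (0.39, limma adjusted p = 0.870; 0.29 without P59 replicate 2). Ltbp4, a further latent binding protein gene, resembled Tgfb1 in shape: 10.16 and 9.77 at P54, 10.06 on P59 replicate 1 and 8.43 on P59 replicate 2 (-0.72, limma adjusted p = 0.880, and 0.10 without P59 replicate 2).

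Receptors of other branches and co-receptors gave 13 tested genes with a median of -0.02 (-0.07 without P59 replicate 2), 0 of them at an unadjusted p under 0.05 in limma. The activin type I receptor gene Acvr1b read 10.39 and 10.47 on the P54 arrays and 10.10 and 10.05 on the P59 arrays. This difference of -0.35 (limma adjusted p = 0.891) was nearly the same without P59 replicate 2 (-0.33). Cd109, which encodes a co-receptor that restrains TGF-beta signalling in keratinocytes, differed by -0.29 (limma adjusted p = 0.925; -0.43 without P59 replicate 2). Eng, the endothelial co-receptor endoglin, differed by -0.47 (limma adjusted p = 0.891), or -0.03 without P59 replicate 2.

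Among Smads and their intracellular regulators 17 genes were tested, with a median of 0.02 (0.05 without P59 replicate 2), and 2 had an unadjusted p under 0.05, 1 in each direction. Ski, the close relative of Skil and like it a Smad co-repressor, was at 10.02 and 9.94 at P54, 9.76 on P59 replicate 1 and 8.76 on P59 replicate 2. It differed by -0.72 (limma adjusted p = 0.762), where Skil differed by 0.07, and by -0.22 without P59 replicate 2. Tgif1, another repressor of Smad-driven transcription, read 8.16 and 8.18 on the P54 arrays and 8.51 and 8.90 on the P59 arrays (0.54, limma adjusted p = 0.764; 0.34 without P59 replicate 2). Usp15, a deubiquitinase of the receptor complex, differed by 0.41 (limma adjusted p = 0.870; 0.36 without P59 replicate 2). With the mean of all its probe sets Usp15 differed by 0.03. The inhibitory Smad gene Smad7, a direct feedback target, read 7.88 and 7.60 on the P54 arrays and 7.92 and 8.10 on the P59 arrays (0.27, limma adjusted p = 0.939; 0.18 without P59 replicate 2).

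Target genes of TGF-beta lay on both sides of 0. Of 18 tested, 7 had a higher and 11 a lower P59 mean, the median was -0.07 (-0.04 without P59 replicate 2), and 1 was higher and 2 lower at an unadjusted p under 0.05. Lox, which encodes the collagen cross-linking enzyme lysyl oxidase, read 11.10 and 10.97 on the P54 arrays and 11.62 and 12.48 on the P59 arrays, a 2.02-fold higher mean (1.02, SE 0.29, 95% interval 0.37 to 1.67, limma adjusted p = 0.478). It differed by 0.59 without P59 replicate 2. Ccn2, which encodes connective tissue growth factor, read 11.88 and 12.02 on the P54 arrays and 9.62 and 11.50 on the P59 arrays (-1.39, SE 0.47, limma adjusted p = 0.588). Here P59 replicate 1 was the low array, so the difference was -2.32 without P59 replicate 2, with a limma adjusted p of 0.0106 that rests on P59 replicate 1, and -0.45 without P59 replicate 1. Junb, an early response gene, read 8.09 and 8.44 on the P54 arrays and 7.80 and 6.71 on the P59 arrays (-1.01, limma adjusted p = 0.575; -0.46 without P59 replicate 2). Tmeff1, known as a target of TGF-beta 2 in the hair germ, was under the intensity filter and not tested, at 5.87 and 5.40 at P54 and 5.74 and 5.90 at P59.

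Of the activins, follistatins and other ligands of the superfamily 6 of 13 genes were tested, with a median of 0.16 (0.20 without P59 replicate 2) and 2 higher at an unadjusted p under 0.05. Inhbb, an activin subunit gene, read 8.50 and 8.07 on the P54 arrays and 8.73 and 9.27 on the P59 arrays (0.72, limma adjusted p = 0.631; 0.45 without P59 replicate 2). Fstl1, a follistatin-like glycoprotein gene of mesenchymal cells, read 11.99 and 11.76 on the P54 arrays and 12.30 and 12.56 on the P59 arrays (0.56, limma adjusted p = 0.743; 0.43 without P59 replicate 2). Fstl3, which encodes an activin-binding protein, differed by -0.40 (limma adjusted p = 0.883; -0.20 without P59 replicate 2).

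Markers of the cells in whole skin are given beside these genes. The mean log2 intensity of 9 fibroblast markers was 11.08 to 11.19 on the P54 arrays and 11.28 to 11.39 on the P59 arrays. Of these, 8 of 9 had a higher P59 mean, where 58.4% of all genes did. That of 8 tested keratinocyte markers was 12.47 to 12.52 at P54 and 11.98 to 12.27 at P59, with 8 of 8 lower. The 8 endothelial markers lay at 7.86 to 8.09 and 7.84 to 7.93, with 3 of 8 higher. The 9 macrophage markers lay at 9.64 to 9.80 and 9.88 to 10.09, with 8 of 9 higher. Markers of the growing follicle, 9 tested, lay at 5.23 to 6.69 at P54, and at 10.11 and 7.83 on P59 replicates 1 and 2. All 9 were higher at an unadjusted limma p under 0.05, where 3.47% of all genes were, and 0 passed the adjusted threshold. The intensity filter used the mean of all arrays, so genes low at P54 could pass it through their P59 values. This favours higher genes in the count, which is therefore a description only. Msx2 of that list was under the filter, with a difference of 0.54. The median difference of the 9 tested was 3.70, or 4.61 without P59 replicate 2. The hair cycle stage, given above as telogen for both ages, was not tested. The 6 tested adipocyte markers lay at 10.30 to 10.37 at P54 and 9.83 to 9.97 at P59, with 5 of 6 lower. The 9 skeletal muscle markers lay at 13.35 to 13.76 and 13.44 to 13.82, the 4 tested T cell markers at 7.18 to 7.41 and 7.37 to 7.51, and the 5 tested mast cell markers at 8.28 to 8.63 and 8.66 to 8.78. The 4 tested dermal papilla markers lay at 7.76 to 7.84 and 7.42 to 8.02, while Corin, Alpl, Sox2 and Hhip of that list were under the filter. At an unadjusted limma p under 0.05, 3 of 9 macrophage, 2 of 9 fibroblast and 1 of 5 mast cell markers were higher. In the same fit 2 of 6 adipocyte, 1 of 8 endothelial and 1 of 4 dermal papilla markers were lower. No keratinocyte, muscle or T cell marker had such a p. Of all 10916 genes tested, 379 were higher and 329 lower at such a p. The part of these cells in the differences was not tested.

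RefSeq's promoter table (GRCm38.p6), which spans 250 bases before to 50 after a gene's start, held 9 windows for 7 of the 10 genes: all but Tgfb3, Tgfbr3 and Skil. They were searched on both strands for CAGACA, a short form of the Smad binding element, because the members include both signalling genes and their targets. It was found in 3 of 9 windows, and in 21% of all 32851 windows in the table. The matches are shown with their flanks, 5' to 3' on the gene's strand, with the motif or its reverse complement TGTCTG in capitals. A match is a description of letters and not a binding site.
Tgfb2, chr1:186706176-186706205, minus strand, 204 bases before the start: ccttggtgatcaCAGACAgtgactactgca
Tgfbr1, chr4:47386001-47386030, plus strand, 203 bases before the start of its second window: tttcgaactcagCAGACAgccccacggtcc
Ltbp1, chr17:75178620-75178649, plus strand, 149 bases before the start of its second window: attacatctgccTGTCTGtcgggggttggc
Ltbp1, chr17:75178671-75178700, plus strand, 98 bases before the same start: gatgttgctcttTGTCTGcccgtgaataaa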

How the data were processed

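The deposited data are 1 table of linear-scale intensity values per probe set, with 2 arrays per group. The authors used RMA and Affymetrix Expression Console, per the submitters' processing notes; versions are not given in the sources used here. Intensities ran from 6.41 to 24000 and were taken to log2 without a pseudocount. Of 45101 probe sets, 64 were array controls and 34945 were listed with 1 gene symbol in GEO's annotation of the platform, which may be out of date. Another 932 had several symbols and 9160 were unlisted here, and both were left out. By Entrez identifier 34741 sets matched RefSeq (GRCm38.p6), with 0 symbols renamed. The set with the highest mean stood for each of 18193 genes. Genes above the 40th percentile (log2 6.58) were tested.

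The contrast P59 minus P54 was fitted by lmFit and eBayes of limma 3.58.1 under R 4.3.3, with 2 residual degrees of freedom and 8.18 prior ones, Benjamini-Hochberg adjustment over 10916 genes and a threshold of 0.05. The code was tested on simulated data. An exact permutation test of 2 arrays against 2 cannot go below p = 0.333, so none was used. The number of arrays limits the precision. The named genes are all members and up to 3 genes of each pathway list with the smallest p, plus Smad7 and Tmeff1; 1 further gene that the rule names is not reported here. Members and lists were chosen with earlier results of these data known. Alternatives changed the filter, the probe set rule, the normalization, eBayes' trend, a block for replicate number, or left out 1 array.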

Additional observations from a re-analysis of the deposited data

How the results depend on the processing

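With 2 arrays against 2, the residual spread rests on 2 degrees of freedom per gene, or 1 without an array. In limma 0 of the 10 genes were called, and this held in all alternatives that kept every array, except the replicate block. That fit called 1.43% of all genes and, of the 10, Tgfb1 alone (limma adjusted p = 0.028). Leaving out 1 array at a time gave 0 to 1 genes called. At an unadjusted p under 0.05 there was 1 of the 10, against 0 with the mean of all probe sets, 2 with arrays centred on the median, 2 with the replicate block and 0 to 7 without 1 array. Of the pathway genes 0 were called, against 1 with the replicate block and 0 to 4 without 1 array; at an unadjusted p under 0.05 there were 7, against 4 with every probe set tested and 2 to 11 without 1 array. Over all genes 2 were called, against 0 without the filter, with the filter at the 60th percentile, with the mean of all probe sets, with every probe set tested and with repeated quantile normalization. With arrays centred on the median 49 were called, with the replicate block 156, and without 1 array 29 to 402. At an unadjusted p under 0.05 there were 708 genes, against 1122 without the filter, 457 with the stricter filter, 1120 with every probe set tested and 273 to 2030 without 1 array. The cause of these shifts was not tested. The replicate numbers are not known to pair the samples: deviations of same-numbered arrays from their group means had a correlation of -0.04 across genes, which are not independent replicates.

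Of 118 values for the 10 genes under an alternative, 7 changed sign. With the mean of all probe sets these were Tgfbr2 (-0.01) and Tgfbr3 (-0.02). The others turned when 1 array was left out. Such fits ran from -2.26 to 0.06 for Tgfb1, from -0.12 to 0.66 for Ltbp2, from -0.13 to 0.53 for Tgfbi and from -0.03 to 0.16 for Skil, each with the changed sign without P59 replicate 2. They ran from -0.09 to 0.70 for Tgfb2, with the changed sign without P54 replicate 2. Of 188 values for 16 named pathway genes 1 changed sign, that of Ltbp4, at -1.53 to 0.10, without P59 replicate 2. Others changed in size with the mean of all probe sets. Usp15 fell from 0.41 to 0.03, Inhbb from 0.72 to 0.45 and Itgb3 from 0.46 to 0.28. Ski moved from -0.72 to -0.47 and Eng from -0.47 to -0.33, while Smad7 rose from 0.27 to 0.33. Tgfb1, Tgfb3, Itgb3, Junb, Smad7 and Fstl3 fell under the stricter filter and have no value there.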
